A study of Rattus norvegicus with 4 samples.

Results

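The calcineurin, Rcan and NFAT genes are described here as 10 genes of 22250 in ribosome footprint libraries from cultured rat heart muscle cells. They were chosen by gene symbol: the calcineurin regulators Rcan1, Rcan2 and Rcan3, the calcineurin subunits Ppp3ca, Ppp3cb and Ppp3r1, and the transcription factors Nfatc1, Nfatc2, Nfatc3 and Nfatc4. All 10 were found, each under 1 Ensembl gene, and all 10 passed the low-count filter. The cells were ventricular cardiomyocytes of Wistar rats aged 1 to 2 days, and every library was made 72 h after siRNA. There were 2 libraries with siRNA against Cpeb4 (siCpeb4) and 2 with control siRNA. The growth protocol given for all libraries also names Torin1, an mTOR inhibitor, at 250 nM for 24 h without saying which samples received it. Whether replicates came from separate cultures is not stated in the labels. A p-value here therefore reflects the spread among these 4 libraries, which may be technical.

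Calcineurin is a phosphatase activated by calcium and calmodulin, built from a catalytic A subunit and a regulatory B subunit. It removes phosphates from NFAT factors, which then enter the nucleus, and in mouse heart its constant activity drives hypertrophy. RCAN proteins bind calcineurin and modulate its activity, and the short transcript of Rcan1 is itself induced by NFAT in mouse and human cells. CPEB4, the protein lowered here, binds elements in 3′ untranslated regions of mRNAs and regulates their poly(A) tails and translation.

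The promoter windows of Rcan1 and Rcan2 are shown because these were the members that passed the test, in opposite directions. Both were taken from RefSeq on GRCr8, minus strand, as 300 bases from 250 before to 50 after the start. They lie at chr11:45118187-45118486 for Rcan1 and chr9:24672140-24672439 for Rcan2. Capitals mark the NFAT core GGAAA, the AP-1 element TGANTCA, the cAMP response element TGACGTCA and the TATA box TATAAA, each searched on both strands.
Rcan1: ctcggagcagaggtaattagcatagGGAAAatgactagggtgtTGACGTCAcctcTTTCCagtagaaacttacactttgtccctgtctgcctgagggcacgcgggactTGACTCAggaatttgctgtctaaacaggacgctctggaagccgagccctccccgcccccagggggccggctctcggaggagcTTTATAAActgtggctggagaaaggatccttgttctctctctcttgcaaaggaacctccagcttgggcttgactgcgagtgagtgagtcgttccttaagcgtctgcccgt
Rcan2: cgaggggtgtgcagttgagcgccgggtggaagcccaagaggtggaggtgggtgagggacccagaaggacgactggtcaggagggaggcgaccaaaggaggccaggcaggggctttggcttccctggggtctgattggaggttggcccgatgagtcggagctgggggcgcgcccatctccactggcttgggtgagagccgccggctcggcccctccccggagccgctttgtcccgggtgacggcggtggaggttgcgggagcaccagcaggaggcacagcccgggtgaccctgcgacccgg
The Rcan1 window held 2 GGAAA cores, 1 TGANTCA, 1 TGACGTCA and overlapping TATAAA matches on both strands, and the Rcan2 window held none of the 4 motifs. The start in each window lies inside the annotated gene rather than at its outer end. Among all 33469 promoter windows, 62.7% held at least 1 GGAAA and 28.5% held 2 or more. TGANTCA was found in 7.33% of windows, TGACGTCA in 1.83% and TATAAA in 14.2%. The motifs were chosen after the Rcan1 window had been read, and a match is a description of letters and not of a bound site. Windows were given for 7 of the 10 members, and GGAAA also occurred in those of Rcan3 (3 matches), Ppp3cb (1) and Ppp3r1 (1), but not in those of Ppp3ca or Nfatc2.

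Gene counts summed to 4889212 and 5910911 in the siCpeb4 libraries and to 5863879 and 3554011 in the controls. Together the 10 genes took 3440 and 4441 footprints after siCpeb4, against 4273 and 2640 with control siRNA. The targeted gene Cpeb4 had 8.18 and 9.98 footprints per 1000000 gene counts (CPM) in the siCpeb4 libraries, against 59.9 and 71.2 CPM in controls. Its fitted log2 fold change of -2.86 ± 0.17 (SE) was 86.2% below control (edgeR adjusted p = 1.57e-09). Cardiomyocyte markers summed to 53816 and 46989 CPM after siCpeb4 and to 45724 and 49982 CPM in controls over 8 genes found, each of which had footprints. Of 9 fibroblast markers, 2 fell and none rose in edgeR, 1 (Col1a2) was listed at 0 in every library, and the sum was 9832 and 9287 CPM against 13269 and 12223 CPM in controls. In bulk footprint libraries, fewer cells of a type, less RNA per cell and fewer ribosomes per mRNA cannot be told apart. No RNA libraries were used here, so a footprint change of any gene cannot be split into RNA level and translation.

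Of the 10 members, 1 rose and 1 fell after siCpeb4 (edgeR quasi-likelihood test, adjusted p under 0.05), both of them RCAN genes. Across the 11335 genes tested, 3.41% were called, with 1.54% higher and 1.87% lower. The members split evenly in sign, 5 positive and 5 negative, with a median log2 fold change of -0.08 against -0.0031 over all genes tested. In 6 members no siCpeb4 library overlapped a control library, which was so for 46% of all genes. Of these members 2 were higher, against a background of 26.5%, and 4 were lower, against 19.5%. In limma-voom 2 members were called, against 3.31% of all genes, and in DESeq2 0. At an unadjusted p under 0.05 in DESeq2 there were 2, against 880 of all 11335 genes. DESeq2 gave an adjusted p for 5 members and for 6720 genes in all, of which it called 2.86%. All 10 of the 95% intervals lay within a 2-fold change in either direction.

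**Figure D1:**
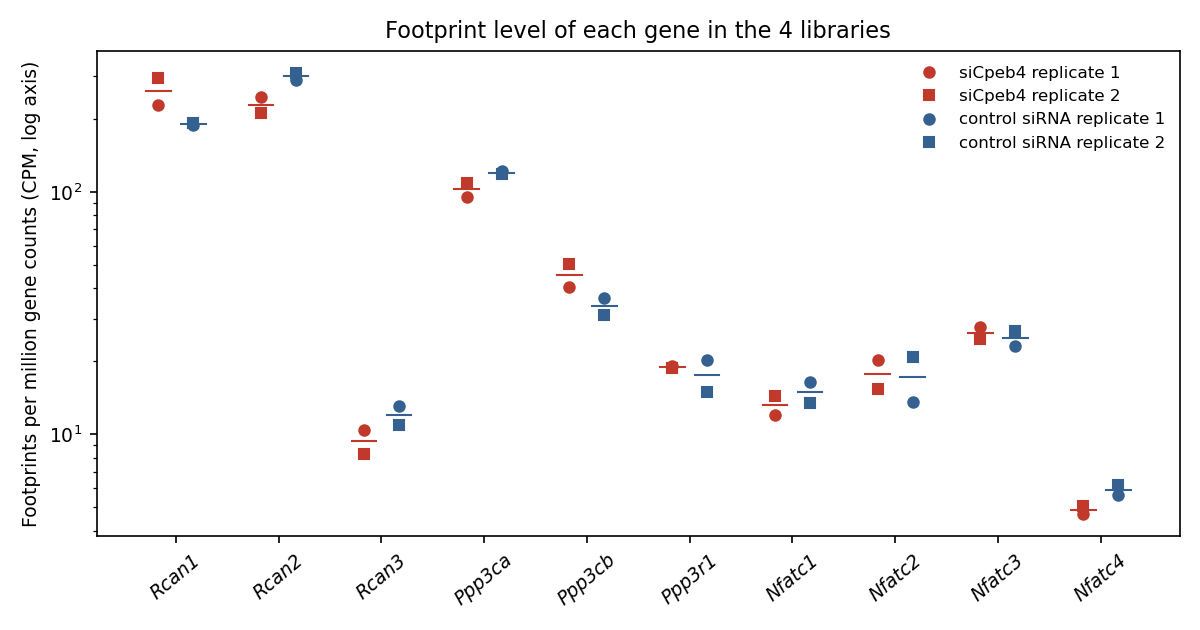
Footprint level of the 10 genes on a log axis (CPM), with siCpeb4 libraries left of control libraries and short lines at group means. Rcan1 sits at 227 and 293 CPM after siCpeb4 against 189 and 191 CPM in controls, and Rcan2 sits below its controls. Genes are not set against each other, since levels are not scaled to length.

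Rcan1 (ENSRNOG00000001979), the regulator induced by calcineurin signalling in mouse heart, had 227 and 293 CPM in the siCpeb4 libraries and 189 and 191 CPM in the control libraries. Both siCpeb4 libraries lay above both controls, and replicate 2 lay well above replicate 1. Counts are per gene, so the short transcript of Rcan1 cannot be told from its other transcripts. The means were 260.4 ± 46.6 CPM after siCpeb4 and 190.2 ± 1.56 CPM in controls (SD, n = 2 each). The rise was 1.34-fold, with a 95% interval of 1.14-fold to 1.58-fold (log2 fold change 0.42 ± 0.12 SE, edgeR adjusted p = 0.0438). The call depended on siCpeb4 replicate 2, the library counted from footprints of 29 to 33 nt where the other 3 spanned 29 to 34 nt. Without it the log2 fold change was 0.24 (edgeR adjusted p = 0.33), and the call also ended without control replicate 1 (0.24) or 2 (0.13) and in DESeq2 (0.085).

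Rcan2 (ENSRNOG00000010350), a paralog that also binds calcineurin, moved the other way. It had 245.6 and 212 CPM in the siCpeb4 libraries and 289 and 309.5 CPM in the controls, again without overlap. The means were 229 ± 23.8 CPM after siCpeb4 and 299 ± 14.6 CPM in controls (SD, n = 2 each). Its log2 fold change was -0.42 ± 0.11 (SE), or 25.0% below control (edgeR adjusted p = 0.0352). The interval ran from 0.64 to 0.88 of the control level. The direction was the same in each alternative run, but the call ended without control replicate 1 (edgeR adjusted p = 0.078), control replicate 2 (0.26) or siCpeb4 replicate 2 (0.22). It also ended with scaling to library totals alone (edgeR adjusted p = 0.056) and in DESeq2 (0.051). The fibroblast marker sum given above was lower in both siCpeb4 libraries, as was the sum of 4 epicardial markers (270.0 and 243 CPM after siCpeb4, against 299.6 and 319.6 CPM in controls). Most of the fibroblast sum was Col1a1, at 6072 and 5374 CPM after siCpeb4 against 8586 and 7867 CPM in controls. Col3a1, Pdgfra and Fbln2 were also lower without overlap. Dcn, Lum, Postn and Tcf21 overlapped between the groups, and Tcf21 had a positive log2 fold change (0.098). The sum of 6 smooth muscle markers was higher, at 5625 and 5993 CPM after siCpeb4 against 5300 and 5351 CPM in controls. Most of it was the actin Acta2, at 4373 and 4797 CPM after siCpeb4 against 3990 and 4051 CPM in controls. Actin genes are near-identical in coding sequence, so the count of Acta2 is uncertain. Myh11 overlapped between the groups, at 83.4 and 87.0 CPM after siCpeb4 against 80.7 and 83.6 CPM in controls. Tagln was lower, at 1125 and 1064 CPM after siCpeb4 against 1194 and 1176 CPM in controls. The epicardial sum was mostly Msln, at 186 and 150 CPM after siCpeb4 against 216 and 218 CPM in controls. No smooth muscle or epicardial marker was called in edgeR, and each sum mainly follows its largest gene. The part of these cell types in the RCAN results was not tested.

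Rcan3, the least counted RCAN gene, had 10.4 and 8.29 CPM in the siCpeb4 libraries and 13.1 and 11.0 CPM in the controls. Its libraries did not overlap between groups, on 51 and 49 footprints against 77 and 39. The log2 fold change of -0.42 ± 0.25 (SE) was as low as that of Rcan2 but did not pass (edgeR adjusted p = 0.44), with an interval of -0.94 to 0.10.

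Summed footprints of the 3 RCAN genes were 484 and 514 CPM after siCpeb4, against 491 and 512 CPM in controls. The sum thus overlapped between the groups while its make-up differed. That difference restates the values above, with Rcan1 higher and Rcan2 and Rcan3 lower in both siCpeb4 libraries than in both controls. It is not a further result. Rcan1 made up 47.0% (exact binomial 95% interval 45.0% to 49.1%) and 57.1% (55.3% to 58.9%) of RCAN footprints in the siCpeb4 libraries. In the controls it made up 38.5% (36.7% to 40.3%) and 37.4% (35.2% to 39.7%). These intervals cover counting error only. The siCpeb4 shares lay apart from each other as well as from both controls. No test was run on the shares, since 2 libraries against 2 cannot give an exact two-sided permutation p below 0.333. By exact Poisson intervals of the CPM values, the siCpeb4 replicates of 2 members, Rcan1 and Rcan2, lay apart beyond counting error, and the control replicates of 0 members did. These 2 members had the most footprints, and such intervals narrow as counts grow. The replicate ratio was 1.16 for Rcan2 after siCpeb4 and 0.66 for Nfatc2 in controls, so overlapping intervals do not mean closer replicates.

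**Figure D2:**
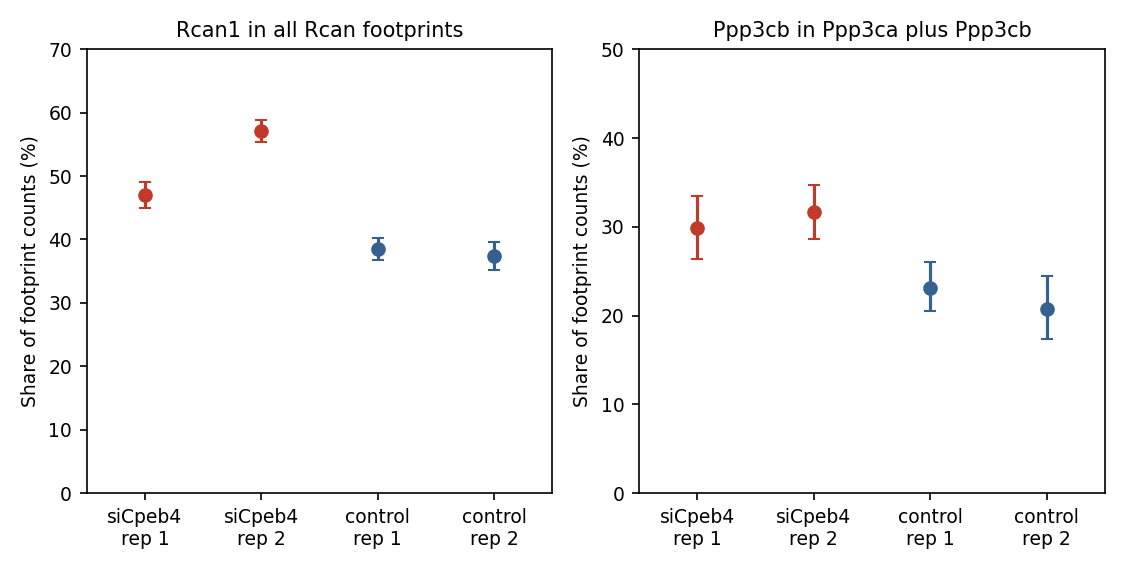
Share (%) of Rcan1 in all RCAN footprint counts (left panel) and of Ppp3cb in the counts of both calcineurin A genes (right panel), per library, with exact binomial 95% intervals. Both siCpeb4 libraries lie above both control libraries in each panel. This follows from the genes behind each share, which differed in opposite directions without overlap. Rcan1 reaches 57.1% in siCpeb4 replicate 2.

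None of the 3 calcineurin subunit genes passed in edgeR or limma-voom. Neither did Ppp3ca or Ppp3cb in DESeq2, which gave no adjusted p for Ppp3r1. At an unadjusted p under 0.05 the count was 2 in edgeR, 0 in DESeq2 and 2 in limma-voom. Such p-values were found for 16.1% of all genes tested in edgeR, and for 880 and 1860 of 11335 genes in DESeq2 and limma-voom.

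Ppp3ca, the catalytic subunit Aα, had 95.5 and 109 CPM in the siCpeb4 libraries and 122 and 118 CPM in the controls. The groups did not overlap, and the log2 fold change was -0.26 ± 0.11 (SE, edgeR adjusted p = 0.26). Ppp3cb, the catalytic subunit Aβ, which mouse knockouts link to the hypertrophic response, had 40.7 and 50.4 CPM after siCpeb4 and 36.7 and 31.0 CPM in controls. Its siCpeb4 libraries were the higher ones, with a log2 fold change of 0.39 ± 0.15 (SE, edgeR adjusted p = 0.18). Its fold interval of 1.06 to 1.63 and that of Ppp3ca, 0.71 to 0.98, are not adjusted for the number of genes.

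Ppp3cb took 29.9% (26.4% to 33.5%) and 31.6% (28.7% to 34.7%) of the footprints of both A genes in the siCpeb4 libraries. In the controls it took 23.1% (20.5% to 26.0%) and 20.8% (17.4% to 24.5%). Intervals are exact binomial at 95%. Here the replicates of a group lay close together and the counting intervals of the groups did not overlap. The shares had to separate, since Ppp3cb was higher and Ppp3ca lower in both siCpeb4 libraries than in both controls. They add nothing to these values of the genes, neither of which passed. The intervals cover counting error only and leave out the spread between replicates. The sum over both genes was 136 and 159 CPM after siCpeb4, against 158 and 149 CPM in controls, which overlapped.

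Ppp3r1, the regulatory B subunit that binds calcium, had 19.2 and 18.8 CPM in the siCpeb4 libraries and 20.3 and 14.9 CPM in the controls. The siCpeb4 values fell between those of the controls, and the log2 fold change was 0.05 ± 0.20 (SE, edgeR adjusted p = 0.94). RefSeq lists 2 pseudogenes of Ppp3r1 and 1 of Ppp3cb. Reads that match a gene and a near-identical copy are lost when only unique reads are counted, so the levels of these genes are uncertain.

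**Figure D3:**
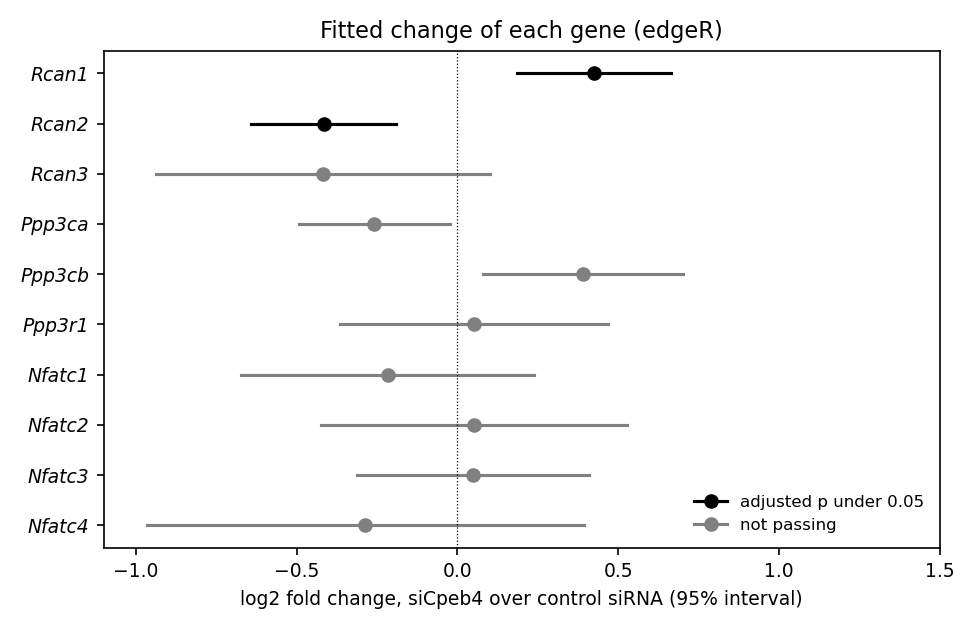
Fitted log2 fold change, siCpeb4 over control siRNA, of each of the 10 genes with its 95% interval from edgeR. Rcan1 at 0.42 and Rcan2 at -0.42 pass an adjusted p under 0.05 (black), and the other 8 genes (grey) do not.

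None of the 4 NFAT genes passed in edgeR or limma-voom. DESeq2 gave an adjusted p for 1 of them, Nfatc3, which did not pass. The count at an unadjusted p under 0.05 was 0 of 4 in each of these tools. Nfatc3, the NFAT gene with the most footprints, had 27.6 and 24.7 CPM in the siCpeb4 libraries and 23.2 and 26.7 CPM in the controls. These values interleave, and the interval of its fold change was 0.80 to 1.33. Nfatc2, best known from lymphocytes, had 20.2 and 15.4 CPM after siCpeb4 and 13.6 and 20.8 CPM in controls. Its control replicates differed more than the group means, and its fold interval was 0.75 to 1.44. The T cell markers Cd3e and Cd8a were listed at 0 in every library, and Cd3d and Lck did not pass the low-count filter. Cd4, a marker of helper T cells that rat macrophages also carry, had 52.8 and 47.2 CPM after siCpeb4 and 42.1 and 47.0 CPM in controls. The 10 leukocyte markers summed to 305 and 368 CPM after siCpeb4, against 397 and 295 CPM in controls, which overlapped.

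Nfatc1, the NFAT factor required for heart valve formation in mice, had 12.1 and 14.4 CPM in the siCpeb4 libraries and 16.4 and 13.5 CPM in the controls. The groups overlapped, with a log2 fold change of -0.22 ± 0.22 (SE, edgeR adjusted p = 0.69). The endothelial markers overlapped as well, with sums of 130.3 and 135 CPM after siCpeb4 and 155 and 127 CPM in controls over 6 genes found. Nfatc4, the NFAT factor first tied to cardiac hypertrophy, had 4.70 and 5.08 CPM after siCpeb4 and 5.63 and 6.19 CPM in controls. The groups did not overlap, but on 23 and 30 footprints against 33 and 22 the log2 fold change of -0.29 ± 0.33 (SE) did not pass (edgeR adjusted p = 0.74). The summed NFAT footprints were 64.6 and 59.6 CPM after siCpeb4, against 58.8 and 67.2 CPM in controls. The fold interval of Nfatc4 ran from 0.51 to 1.31.

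Genes around the pathway were taken from 5 lists with 70 tested entries, of which 4 rose and 1 fell in edgeR. Over all genes tested, 1.54% rose and 1.87% fell, the background for each list. The 70 list entries had a median log2 fold change of -0.03. Among 14 genes for partner factors and their muscle atrophy targets, 2 rose and 12 did not pass (median 0.07). The 2 were Nfat5 and Trim63, and Trim63 was listed as a target and not as a factor. Nfat5, the tonicity-responsive NFAT relative that calcineurin does not control, had 48.7 and 57.5 CPM in the siCpeb4 libraries and 29.8 and 27.9 CPM in the controls. It rose 1.80-fold (log2 fold change 0.85 ± 0.14 SE, edgeR adjusted p = 0.0011). Trim63, the muscle ubiquitin ligase MuRF1, had 298 and 262 CPM after siCpeb4 and 172 and 174 CPM in controls, and rose 1.59-fold (edgeR adjusted p = 0.000687). The calls of Nfat5 and Trim63 held under each alternative run, with edgeR adjusted p up to 0.025 and 0.0083 when 1 library was left out. Mef2d, a muscle transcription factor that calcineurin activates, had 124 and 108 CPM after siCpeb4 against 89.0 and 81.6 CPM in controls and did not pass (edgeR adjusted p = 0.063).

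Of 11 calcineurin partners tested, none passed in edgeR, DESeq2 or limma-voom. In sign 9 were negative, against 5726 of all 11335 genes tested, and the median log2 fold change was -0.18. At an unadjusted p under 0.05 the counts were 2 in edgeR, 1 in DESeq2 and 2 in limma-voom. Over all 11335 genes they were 1824, 880 and 1860. The smallest p-values belonged to the sarcomeric calcineurin inhibitor Myoz2 (log2 fold change -0.28 ± 0.10), the calcineurin-binding LIM protein Lmcd1 (-0.25 ± 0.11) and the calcineurin inhibitor Cabin1 (-0.27 ± 0.15). Myoz2 had 432 and 486 CPM after siCpeb4 and 512 and 579 CPM in controls. Ppp3r2, a testis form of the B subunit, was listed at 0 in all 4 libraries, and Myoz1, Chp1 and Chp2 did not pass the low-count filter.

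Among 16 NFAT kinases and transport genes none passed in edgeR, DESeq2 or limma-voom. In sign 10 were positive, against 5609 of all 11335 genes tested, and the median was 0.06. At an unadjusted p under 0.05 the counts were 2 in edgeR, 1 in DESeq2 and 2 in limma-voom. Over all 11335 genes they were 1824, 880 and 1860. Dyrk1a, a kinase that phosphorylates NFAT and favours its export from the nucleus, had 100.4 and 110.5 CPM in the siCpeb4 libraries and 76.9 and 81.0 CPM in the controls. Its groups did not overlap, and its log2 fold change of 0.39 ± 0.12 (SE) passed only without the low-count filter (edgeR adjusted p = 0.047, against 0.068). Lrrk2, described as a negative regulator of NFAT in mouse macrophages, had a log2 fold change of -0.35 ± 0.15, and the NFAT kinase Gsk3a one of -0.24 ± 0.12.

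Of 15 genes listed for calcium supply 1 rose, the L-type calcium channel Cacna1c, and 14 did not pass (median 0.02). The list was broader than its name and also held the calcium pump Atp2a2, the exchanger Slc8a1 and the kinases Camk2d and Camk2g. Cacna1c had 390 and 385 CPM after siCpeb4 and 275 and 297 CPM in controls (1.33-fold, edgeR adjusted p = 0.0252). That call ended without control replicate 1 (edgeR adjusted p = 0.34), control replicate 2 (0.075) or siCpeb4 replicate 1 (0.067). The store calcium sensor Stim1 and the store-operated channel Orai1 had log2 fold changes of 0.29 ± 0.20 and -0.22 ± 0.16.

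Of 14 hypertrophy genes 1 rose and 1 fell, and the median was -0.05. The skeletal actin Acta1, near-identical in coding sequence to other actins and so uncertain in count, had 3530 and 3114 CPM in the siCpeb4 libraries and 1765 and 2213 CPM in the controls. The matricellular gene Ccn2 had 1643 and 1786 CPM after siCpeb4 and 2537 and 2326 CPM in controls. Adjusted p-values in edgeR were 0.000687 for Acta1 and 0.0026 for Ccn2, and that of Ccn2 was 0.056 without control replicate 1. Ptgs2, the inducible cyclooxygenase, stayed short of the threshold (log2 fold change -0.70 ± 0.27, edgeR adjusted p = 0.19). In this list 7 of 14 genes had an unadjusted p under 0.05 in edgeR, against 16.1% of all genes tested. They went both ways, with Acta1, Actc1 and Edn1 higher and Myh7, Ankrd1, Ptgs2 and Ccn2 lower. The count was 5 in DESeq2 (880 of all 11335 genes). It was 4 in edgeR with the replicate number as a block (1717 of all 11335 genes).

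**Figure D4:**
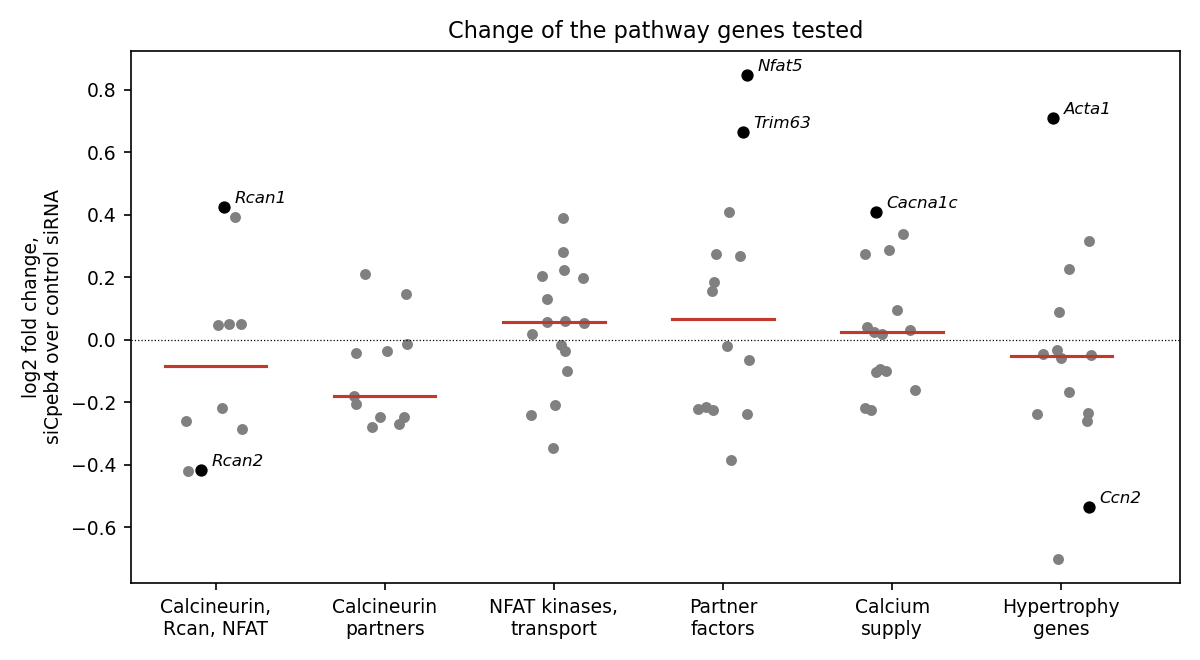
Log2 fold change, siCpeb4 over control siRNA, of the 10 genes (left column) and of the tested genes in the 5 pathway lists, with called genes in black and named, others in grey, and a red line at each median. Nfat5 at 0.85 is the highest point, and medians lie between -0.18 and 0.07.

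The genes whose pattern over the 4 libraries was most like that of Rcan1 were Kremen1, Fgd3, Psme4, Galnt14 and Ttc8, at Euclidean distances of 0.020 to 0.051 between centred log2 CPM values. Of these Psme4, a proteasome activator, was itself called (log2 fold change 0.43 ± 0.11 SE, edgeR adjusted p = 0.0334). The 5 nearest to Rcan2 were Map3k5, Naxd, Ip6k2, Thbd and Pkm, at distances of 0.031 to 0.045, and their log2 fold changes lay between -0.44 and -0.40. With 4 libraries in 2 groups, a small distance says little beyond a like difference between groups and between replicates.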

How the data were processed

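Ribosome footprints were counted per gene in 2 siCpeb4 and 2 control siRNA libraries. Per the labels' protocols, polysome fractions were digested with RNase I. The deposited files hold raw counts per Ensembl gene without normalisation. The rat build was Rnor_6.0 and the tools HTSeq 0.12, STAR 2.7 and Bowtie2, per the submitters' processing notes. The sources used here give no strand setting, so overlapping and antisense genes are uncertain. The authors kept unique reads of 29 to 34 nt, or to 33 nt in siCpeb4 replicate 2, per the file names. The 5 summary rows (no feature 4.42% to 4.63% of reads, ambiguous 0.080% to 0.092%) stayed out of library sizes.

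The edgeR 4.0.16 quasi-likelihood test (R 4.3.3, TMM, filterByExpr with a minimum count of 10, group as the only term, two-sided) was fitted on all genes, with Benjamini-Hochberg adjustment over 11335 genes and a threshold of 0.05. Standard errors came from the F statistic. CPM values use library totals. The workflow was tested on simulated counts. Replicates differed by more than sampling noise (chi-square per degree of freedom 5.32 for siCpeb4, 3.00 for controls). Alternatives used RLE factors, library totals, DESeq2 1.42.0, limma-voom (limma 3.58.1), other filters, a replicate block and left-out libraries. Coding lengths and protein sequences were not used here, so planned levels per coding kilobase and protein identities are not given and family shares are of raw counts. Named genes are the members, Cpeb4, each list's called genes and its 3 smallest p-values, and the 5 nearest profiles of each called member. Marker genes, list genes at 0 or under the filter, and motifs are named beyond that rule, after their values were seen. The members and lists were chosen with earlier results of these data known.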

Additional observations from a re-analysis of the deposited data

How the results depend on the processing

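Against 386 genes called, DESeq2 called 192 and edgeR without the low-count filter 606, and leaving out each library gave 212 (without control replicate 1) to 318. The 2 calls among the 10 members became 1 with library totals alone and 0 in DESeq2. There 5 members had an adjusted p and 2 an unadjusted p under 0.05, against 880 of all 11335 genes. Leaving out each library gave 0 to 2 in edgeR. With 1 library left out, the log2 fold change of Rcan2 ran from -0.53 to -0.30. Rcan1 had a log2 fold change of 0.42 in DESeq2 (adjusted p = 0.085) and of 0.24 to 0.59 with 1 library left out (edgeR adjusted p 0.0057 to 0.33). The 5 pathway calls became 9 without the low-count filter and 3 to 7 with 1 library left out, 3 being without control replicate 1. Signs changed only in uncalled genes when 1 library was left out, with ranges of -0.11 to 0.31 for Ppp3r1, -0.27 to 0.36 for Nfatc2, -0.074 to 0.15 for Nfatc3 and -0.38 to 0.0034 for Orai1. Mef2d passed without the filter (edgeR adjusted p = 0.031) and without siCpeb4 replicate 2 (0.043). The causes were not tested. Fewer libraries leave fewer degrees of freedom, and the lone library of a group is assumed to vary like the other group. With the replicate number as a block, 403 genes and 2 members were called. Deviations of same-numbered libraries from their group means had only a weak negative correlation (r = -0.11 across genes). The crossed pairing, added after seeing the data, called 481 genes and 2 members. Length-scaled family shares were not run. Rcan3 and Nfatc4 rest on at most 77 footprints a library.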

Other observations

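Some of the listed genes had almost no footprints counted or none. Map3k7, which encodes a kinase upstream of stress signalling, was listed at 0 in all 4 libraries, as was the collagen gene Col1a2. Chp1, a calcineurin B-like protein, had 1 count in siCpeb4 replicate 1 and 0 in the other libraries. Levels of these genes in the cells cannot be read from these counts.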
